A study of Mus musculus with 32 samples.

Results

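The mesenteric arteries of mice that overexpress endothelin-1 were compared at 3 months and at 16 days after the overexpression had been induced, with small RNA sequencing of 1 library per mouse. Endothelin-1 is a peptide made by endothelial cells that constricts the vessel and drives its remodelling. All mice were male, 10 to 12 weeks old at the start, and received tamoxifen subcutaneously at 1 mg/kg/day for 5 days. The mice compared are called ieET-1 in the labels. The controls, called ieCre, carry a tamoxifen-inducible Cre recombinase driven by the Tie2 promoter, which is active in endothelium, and received the same tamoxifen without the overexpression. The 3-month mice of both genotypes are also older than the 16-day mice, so that time after induction and age cannot be told apart. The table holds no mRNA, and the level of endothelin-1 itself was not checked here.

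The comparison used 15 of the 30 libraries in the table: 8 of ieET-1 mice at 3 months and 7 of ieET-1 mice at 16 days. The eighth 16-day library, mouse 258, was left out because its values were nearly identical to those of ieCre 16-day mouse 8 (Pearson's r = 0.999936 over miRNAs, against at most 0.996284 in any other of the 435 pairs). That ieCre library was left out too, leaving 6 ieCre mice at 16 days and 7 at 3 months as the side comparison. Of 32 labelled samples, a further 2 of ieCre mice were not analysed here, which leaves 28 libraries in the fit. The libraries held 11914184 to 35531345 recovered miRNA reads at 16 days and 3914624 to 31666722 at 3 months.

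MicroRNAs (miRNAs) are short RNAs that guide silencing complexes to messenger RNAs, mainly through the seed, bases 2 to 8 of the mature strand. Members of a family share a seed and so share many targets, members of a cluster are cut from one long transcript, and the 5p and 3p arms are the strands of one hairpin, of which 1 is usually retained. In the artery wall miR-143 and miR-145 are the classic smooth muscle miRNAs, miR-126 marks endothelium, and the imprinted Dlk1-Dio3 locus on chromosome 12 of the mouse expresses its large set of miRNAs from the maternal chromosome, at high levels in fetal and young tissue.

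The mature sequences of the miRNAs on which the comparison turns are shown with the seed in capitals, from RefSeq on GRCm38.p6, so that the miRNAs can be grouped by the targets a seed can reach. miR-541-5p lies at chr12:109742422-109742446, miR-434-5p at chr12:109594528-109594549 and miR-433-3p at chr12:109591781-109591802, all on the plus strand.
miR-541-5p: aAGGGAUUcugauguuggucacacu
miR-434-5p: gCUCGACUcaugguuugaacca
miR-433-3p: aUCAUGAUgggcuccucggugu
The other lower miRNA with a sequence, miR-449a-5p at chr13:113037549-113037570 on the plus strand, has the seed of miR-34a-5p, shown beside it.
miR-449a-5p: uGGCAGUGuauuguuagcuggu
miR-34a-5p: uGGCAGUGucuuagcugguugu
Among the higher ones, miR-215-5p (chr1:185313610-185313630, plus strand) has the seed of miR-192-5p and differs from it at 3 of 21 bases.
miR-215-5p: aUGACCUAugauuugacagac
miR-192-5p: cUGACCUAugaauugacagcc
miR-101b-3p (chr19:29135338-29135356, plus strand) and miR-101a-3p (chr4:101346957-101346977, minus strand) share a run of 15 bases. That run starts at base 1 of miR-101a-3p and at base 2 of the miR-101b-3p entry, which shifts the seed by 1 base.
miR-101b-3p: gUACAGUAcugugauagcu
miR-101a-3p: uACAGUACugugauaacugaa

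In the main fit the difference between the times was small in number and led by lower miRNAs of the Dlk1-Dio3 locus. Of 870 miRNAs in the table, 354 reached a value of 1 in 8 or more of the 30 libraries and were tested with limma, a linear model with a shared estimate of the spread, on log2 of the deposited normalized signal plus 1. At an adjusted p below 0.05, 7 of 354 differed between 3 months and 16 days, which is 1.98% of those tested: 2 were higher (0.565%) and 5 were lower (1.41%). At an unadjusted p below 0.05 there were 66 (18.6%), 28 higher (7.91%) and 38 lower (10.7%). Of all tested miRNAs 211 lay below 0, with a median log2 change of -0.10. The median was -0.04 after median-ratio scaling and -0.40 after scaling to total miRNA reads, so list medians are given beside it. For 213 miRNAs (60.2%) the 95% interval of the change lay within 2-fold on the log2(value + 1) scale, which understates changes of miRNAs with values near 1.

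The 7 miRNAs were miR-541-5p, miR-434-5p, miR-433-3p, miR-449a-5p and miR-3107-3p, which were lower at 3 months, and miR-215-5p and miR-101b-3p, which were higher. miR-541-5p and miR-434-5p had limma adjusted p of 0.0055 and 0.00309, while the other 5 lay between 0.0431 and 0.0492. miR-541-5p and miR-434-5p passed in each of the 28 fits that left out 1 library. Each of the other 5 failed in some of them, from 13 of 28 for miR-215-5p to 20 of 28 for miR-101b-3p, with the highest adjusted p at 0.126. The libraries of mice 9489 and 9490 weighed most: without either the count was 17 or 14, and without both it was 40. Of those 40, 24 were higher and 16 lower, so that the lower miRNAs no longer led.

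**Figure D1:**
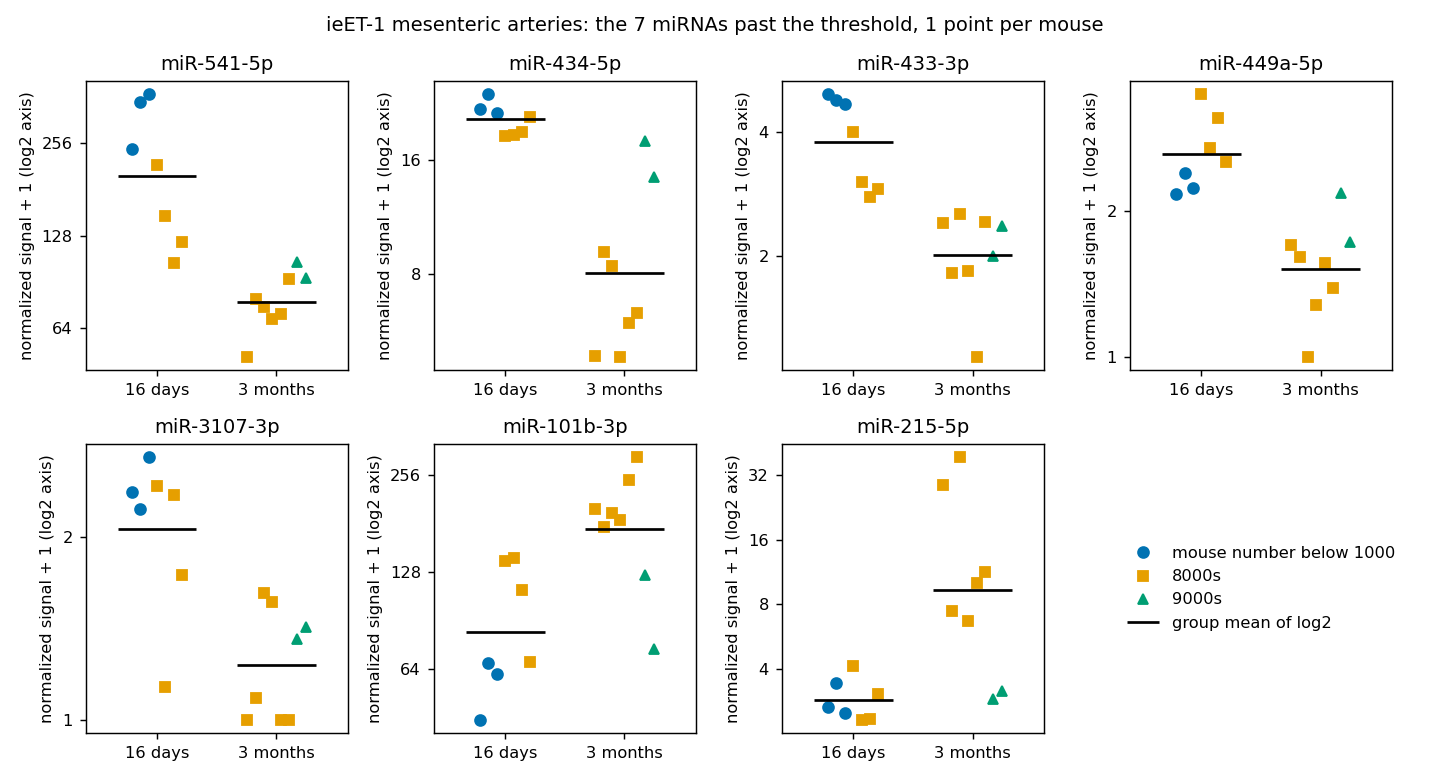
Normalized signal plus 1 on a log2 axis for the 7 miRNAs that passed the threshold, with 1 point for each ieET-1 mouse at 16 days (7 mice) and at 3 months (8 mice). Black lines are the means of the log2 values, and symbols give the range of the mouse number in the labels. Only in miR-434-5p and miR-433-3p do all 3-month mice lie below all 16-day mice, and the mice numbered in the 9000s lie nearer the 16-day level in miR-434-5p, miR-101b-3p and miR-215-5p.

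The Dlk1-Dio3 miRNAs supplied 3 of the 5 lower miRNAs. These are transcribed from the imprinted domain that also encodes Dlk1, Rtl1 and Meg3. miR-434-5p, from a hairpin antisense to the retrotransposon-derived gene Rtl1, had a normalized signal of 17.5 at the lowest, 19.8 at the median and 22.8 at the highest in the 16-day mice, and 3.83, 6.34 and 16.98 at 3 months. Every 3-month mouse lay below every 16-day mouse. The 6 mice numbered in the 8000s had 3.83 to 8.15, and mice 9489 and 9490 had 16.98 and 13.4. On the log2(value + 1) scale miR-434-5p fell to 0.393 of its 16-day level, a log2 change of -1.35 ± 0.25 (SE). Among ieET-1 mice numbered in the 8000s alone the log2 change was -1.59 with an adjusted p of 0.000992 in limma.

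miR-541-5p, from the miR-379/410 cluster, ran from 103 to 370 with a median of 217 at 16 days, and from 50.3 to 103 with a median of 76.1 at 3 months. The groups touched at their edges, where 16-day mouse 8991 and 3-month mouse 9489 were close to each other. It fell to 0.387 of its 16-day level, with a log2 change of -1.37 ± 0.28 (SE). The 16-day mice were themselves spread by number: mean signal was 321 in the 3 mice below 1000 and 147 in the 4 mice in the 8000s. Within the 8000s the log2 change was -0.99, with an adjusted p of 0.118 in limma.

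miR-433-3p, which lies next to miR-127 and is likewise antisense to Rtl1, was a low miRNA, at 1.79 to 3.94 (median 3.00) at 16 days and 0.141 to 1.54 (median 1.19) at 3 months. The groups did not overlap. It fell to 0.533 of its 16-day level on the log2(value + 1) scale (log2 -0.91 ± 0.23, SE), a scale that understates changes at such levels. The signal rested on 16 to 205 reads per library at 16 days and on 1 to 49 at 3 months. In the 8000s alone the log2 change was -0.68 with an adjusted p of 0.23.

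Across the locus, the change was mostly in one direction and mostly too small for the threshold. Of 100 listed miRNAs of the locus 42 passed the filter on low values. Of those 42, 3 were called lower, beside 1.41% of all tested, none was called higher, and 39 lay below 0. Their median log2 change was -0.49, against -0.05 in the 312 tested miRNAs outside the locus. At an unadjusted p below 0.05, 15 of 42 were lower, beside 10.7% of all tested. The part around Rtl1 had 13 of 14 tested members below 0, with a median of -0.60, and the miR-379/410 cluster 26 of 28, with a median of -0.47. Taken by position, the hairpins at chr12:109563692-109595388 had 13 of 13 tested arms below 0 and those at chr12:109709060-109747960 had 24 of 25. The same miRNAs are clusters of one transcript and can be several arms of 1 hairpin, so they are not independent of each other.

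Members that did not pass included miR-668-3p, which had 1.25 to 3.16 at 16 days and 0.141 to 1.23 at 3 months. The groups did not overlap, yet the log2 change of -0.81 ± 0.23 (SE) had an adjusted p of 0.0597 in limma. miR-300-3p had 17.9 to 26.9 and then 9.72 to 17.7, again with no overlap, a log2 change of -0.69 ± 0.20 and the same adjusted p. miR-431-5p had a log2 change of -1.03 ± 0.31 (adjusted p = 0.061) and miR-666-5p of -0.82 ± 0.25 (adjusted p = 0.0724). miR-127-3p, the most abundant of the named members, had a median of 4603 at 16 days and 2694 at 3 months, with a log2 change of -0.76 ± 0.28 (adjusted p = 0.141). miR-434-3p, the partner arm of miR-434-5p, had a log2 change of -0.61 ± 0.53 (adjusted p = 0.476) and ranged from 14.1 to 190 within the 16-day mice. Its direction turned to 0.40 in ieET-1 mice of the 8000s alone and to 0.43 with the range of mouse number as a term. In these whole arteries, fewer cells of a type and less RNA per cell cannot be told apart.

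**Figure D2:**
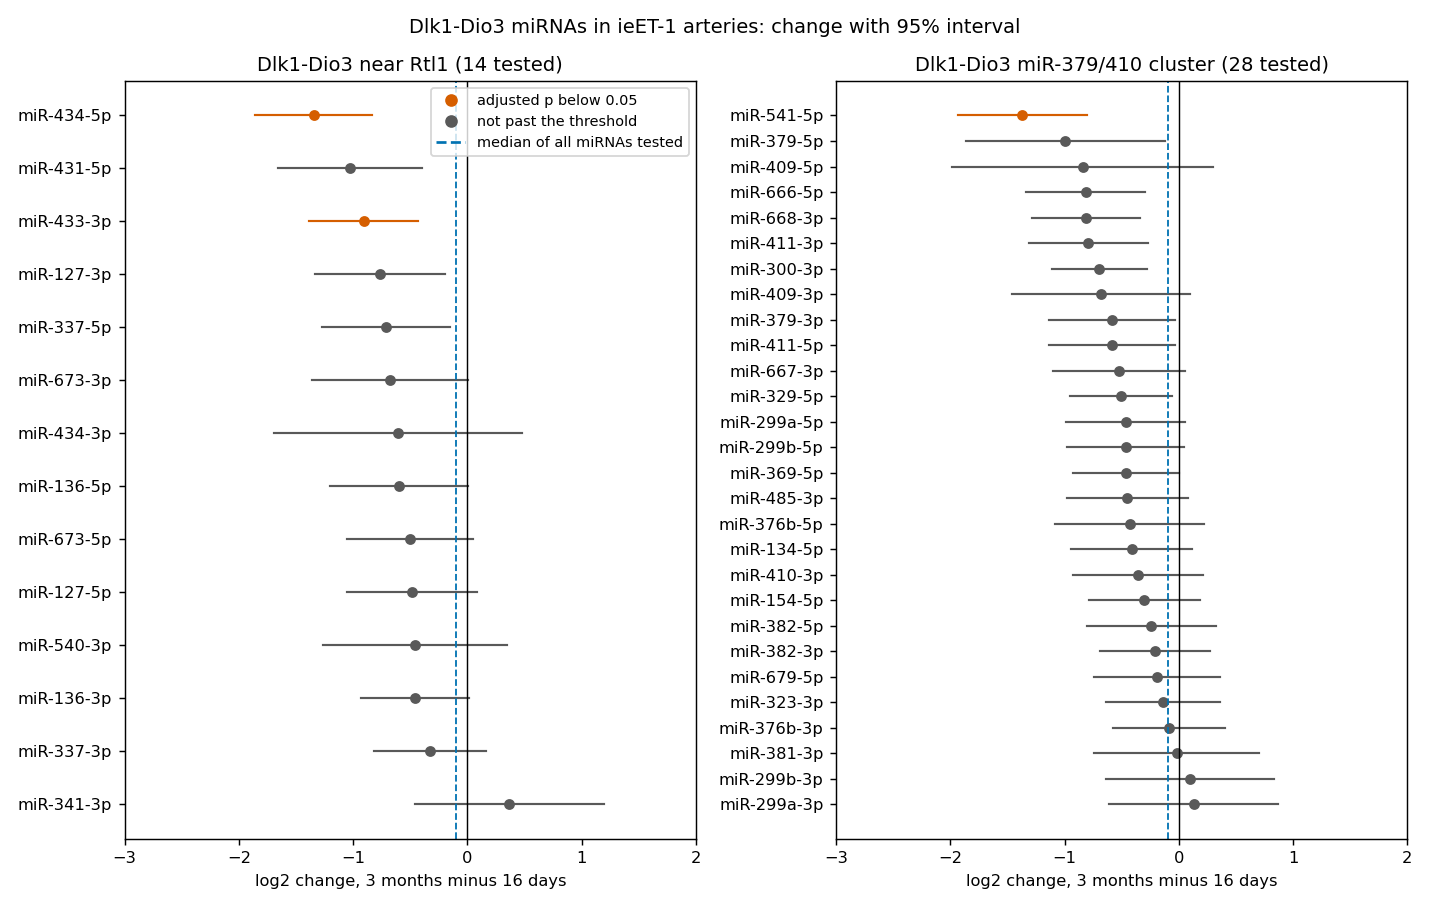
Log2 change of each tested Dlk1-Dio3 miRNA in ieET-1 arteries (3 months minus 16 days, dots) with its 95% interval (lines), in the part around Rtl1 (14 miRNAs, left) and in the miR-379/410 cluster (28 miRNAs, right), ordered by change. Dots left of 0 number 13 of 14 and 26 of 28, and 3 of 42 (miR-434-5p, miR-433-3p and miR-541-5p) passed the threshold.

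The median of the locus stayed below 0 under each scaling and in each subset run, while its number of calls moved with the libraries used. The number called lower was 3 of 42 after median-ratio scaling (5 lower of all 354) and 5 after TMM scaling (7 of 354), with medians of -0.44 and -0.51. In ieET-1 mice in the 8000s alone 32 of 42 lay below 0, with a median of -0.53, and 1 was called (2 of 354). In mice numbered 8000 or above of both genotypes 36 of 42 lay below 0 with a median of -0.52, and none was called. Without mice 9489 and 9490 8 of 42 were called lower, beside 16 of 354.

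A further pair of miRNAs was lower. miR-449a-5p, a member of the miR-34 and miR-449 family known from ciliated epithelium and cell cycle control, had 1.17 to 2.50 (median 1.54) at 16 days and 0 to 1.18 (median 0.586) at 3 months. Only mouse 9489 overlapped the 16-day range. On the log2(value + 1) scale, which understates changes at such levels, miR-449a-5p fell to 0.578 of its 16-day level (log2 -0.79 ± 0.21, SE, limma adjusted p = 0.0492). Its reads per library were 19 to 76 at 16 days and 0 to 46 at 3 months. miR-34a-5p, with the same seed, had a log2 change of 0.43 ± 0.23 (adjusted p = 0.288), with medians of 3.41 and 4.28.

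miR-3107-3p, whose hairpin name mir-3107 is a synonym of mir-486b, had no exact match among the RefSeq mature names. Its log2 values followed those of miR-486-3p over the 28 libraries (Pearson's r = 0.80). Whether the rows share reads was not tested. It had 0.131 to 1.71 (median 1.34) at 16 days and 0 to 0.615 (median 0.223) at 3 months, where 3 of 8 libraries had no read. On the log2(value + 1) scale, which understates changes at such levels, miR-3107-3p fell to 0.597 of its 16-day level (log2 -0.74 ± 0.20, SE, limma adjusted p = 0.0492). edgeR on the recovered reads gave an adjusted p of 0.0522. miR-486-3p, an arm of a miRNA that is abundant in red blood cells, had medians of 3.62 and 1.74 and a log2 change of -0.75 ± 0.23 (adjusted p = 0.0637). Of 6 tested erythroid rows (miR-451a, miR-144 and miR-486) 5 lay below 0 with a median of -0.76, and none was called. Both rows of miR-486-5p are among the 6 and were near-identical (Pearson's r = 1 over the 28 libraries), so that miRNA is counted more than once. The summed signal of the 6 rows ran from 33033 to 311620 at 16 days and from 16075 to 253721 at 3 months. Most of it was miR-486-5p: miR-144 and miR-451a together summed to 148 to 692 at 16 days and 97.0 to 695 at 3 months. The part of blood left in the vessels was not tested.

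miR-215-5p had the largest log2 increase of the 354 in limma on the log2(value + 1) scale. In edgeR and DESeq2 on recovered reads others were larger, among them miR-429-3p at 3.67 and 2.74. With miR-192 and miR-194 it forms a group known from intestinal, kidney and liver epithelium and from the p53 response. The signal was 1.31 to 3.14 (median 1.65) at 16 days and 1.87 to 37.8 (median 7.75) at 3 months. The 6 mice in the 8000s had 5.70 to 37.8, above every 16-day mouse, while mice 9489 and 9490 had 1.87 and 2.15, within the 16-day range. On the log2(value + 1) scale, which understates changes at such levels, miR-215-5p rose 3.27-fold, with a log2 change of 1.71 ± 0.42 (SE, limma adjusted p = 0.0431).

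Depth moved with this value. The 2 highest values, 37.8 in mouse 8136 and 27.8 in mouse 8134, came from the libraries with the fewest reads, 4994864 and 3914624. They stood for 123 and 79 reads of miR-215-5p. The deepest 3-month library, mouse 9489 with 31666722 reads, had 73. Over the 8 libraries the reads of this miRNA ran only from 61 to 149. Without the libraries under 5000000 reads the log2 change was 1.09 with an adjusted p of 0.113 in limma.

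Its seed partner miR-192-5p was far more abundant, at 292 to 786 (median 429) and 349 to 9999 (median 938). The highest value was that of mouse 8135, and the log2 change of 1.19 ± 0.44 had an adjusted p of 0.142. miR-194-5p, whose 2 hairpins each neighbour one of these (Mir215 on chromosome 1, Mir192 on chromosome 19), had a log2 change of 0.65 ± 0.33 (adjusted p = 0.267). Among the 9 tested epithelial markers (miR-200, miR-192, miR-194, miR-215 and miR-203) 1 was called higher, beside 0.565% of all tested, and 9 of 9 lay above 0 with a median of 0.98. Without mouse 8135 none was called and the median was 0.41, and on recovered reads the median was 2.48 in edgeR (2 called) and 2.07 in DESeq2 (3 called). Their summed signal was 338 to 847 at 16 days and 499 to 11095 at 3 months, and at most 1416 without mouse 8135. miR-200b-3p was 298 in mouse 8135, 38.9 in mouse 9490 and at most 8.61 in the other 3-month mice, against 0.536 to 14.2 at 16 days. The 4 tested pancreas and liver miRNAs also lay above 0 (median 0.94, none called), led by miR-375-3p at 1050 in mouse 8135. None of the 18 epithelial rows was at 0 in all 15 libraries. The part of intestinal or pancreatic tissue in these values was not tested.

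A second higher miRNA came from the miR-101 family. miR-101 targets the histone methyltransferase Ezh2. miR-101a and miR-101b come from hairpins on chromosomes 4 and 19, and the miR-101c entry lies on chromosome 9. miR-101b-3p was 43.6 to 141 (median 66.7) at 16 days and 72.9 to 291 (median 190) at 3 months. It rose 2.10-fold, with a log2 change of 1.07 ± 0.29 (SE, limma adjusted p = 0.0492). Mouse 9490 at 72.9 and mouse 9489 lay inside the 16-day range, and the other 6 mice lay above all 16-day mice. Mean signal at 16 days was 56.9 in the 3 mice below 1000 and 114 in the 8000s, and within the 8000s the log2 change was 0.94 (adjusted p = 0.118).

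miR-101a-3p was about an order of magnitude higher in signal, with medians of 570 and 1599, and a log2 change of 1.17 ± 0.34 (adjusted p = 0.0597). miR-101c, a near copy of it, had 0.91 ± 0.31 (adjusted p = 0.105), and the log2 values of both followed those of miR-101a-3p over the 28 libraries (r = 0.96 for miR-101b-3p and 0.89 for miR-101c), so that the 3 rows may share reads. The passenger arm miR-101a-5p had 0.17 ± 0.21 (adjusted p = 0.643). All 4 tested members of the family lay above 0, with a median of 0.99, but after scaling to total reads miR-101a-5p turned to -0.085.

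Other miRNAs with higher values stayed short of the threshold. miR-23b-3p, a vascular miRNA of the miR-23/27/24 cluster, had 605 to 1079 (median 962) at 16 days and 1028 to 1666 (median 1288) at 3 months, with 7 of 8 mice above all 16-day mice. Its log2 change was 0.58 ± 0.17 with an adjusted p of 0.0597, and it passed after median-ratio scaling (0.65, adjusted p = 0.0184), where 8 miRNAs passed in all (2.26%), and in edgeR (adjusted p = 0.0286), where 12 did (3.39%). DESeq2 called 27 (7.63%). miR-182-5p had medians of 194 and 606 and a log2 change of 1.41 ± 0.49 (adjusted p = 0.105), again with mice 9489 and 9490 low at 82.6 and 138. miR-9-5p, a neural miRNA, had medians of 119 and 329 and 1.06 ± 0.39 (adjusted p = 0.141). The neural list was split: of its 8 tested members 4 lay above 0 and 4 below, with a median of 0.08, and none was called. The lowest of them was miR-128-3p, with a log2 change of -0.78 (limma adjusted p = 0.163). miR-21a-5p, a miRNA of remodelling tissue, had medians of 1788 and 2302 and 0.65 ± 0.24 (adjusted p = 0.142).

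**Figure D3:**
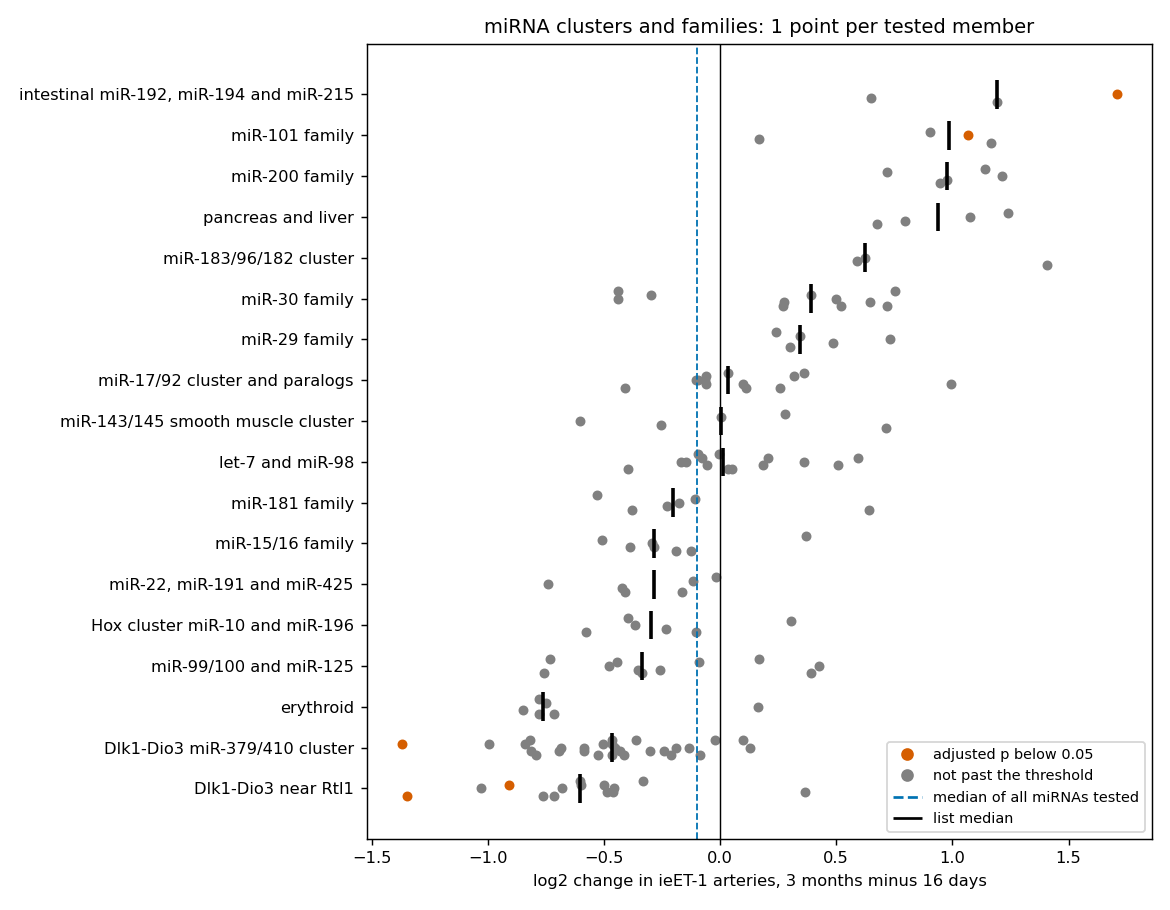
Log2 change of every tested member of 18 miRNA clusters and families in ieET-1 arteries (3 months minus 16 days). Short black bars are list medians and the dashed line is the median of all 354 miRNAs at -0.10. The Dlk1-Dio3 and erythroid lists lie lowest, and the intestinal, miR-101, miR-200, and pancreas and liver lists lie highest, with 5 members past the threshold.

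Seeds shared by at least 3 tested miRNAs with a matched sequence held no called member in limma. Only the 298 of 354 names matched in RefSeq were grouped, so that miR-34c-5p, miR-497-5p and miR-30b-5p, among others, were left out. The called miR-449a-5p and miR-215-5p share their seeds with miR-34a-5p and miR-192-5p, in groups of fewer than 3 matched members. Of the 13 seeds counted, 2 had every matched member above 0 and 4 every matched member below 0. Of their 50 members 0 passed the threshold (limma, beside 1.98% of all tested). At an unadjusted p below 0.05 there were 6 of the 50, beside 66 of all 354 (18.6%). edgeR called 0 of the 50 and 12 of the 354, and DESeq2 called 1 and 27. The seed AGCACCA of miR-29, which represses collagens and other matrix genes, had 3 of 3 above 0: miR-29b-3p at 0.73 ± 0.24 (adjusted p = 0.101), miR-29c-3p at 0.34 ± 0.25 and miR-29a-3p at 0.30 ± 0.25. Mouse 9490 was the highest of the 3-month mice in all 3. Scaling to total reads turned miR-29a-3p and miR-29c-3p to -0.0901 and -0.0376.
miR-29b-3p: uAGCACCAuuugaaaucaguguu
miR-29c-3p: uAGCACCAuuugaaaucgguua
miR-29a-3p: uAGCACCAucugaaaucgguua
The seed AAUACUG of miR-200b, miR-200c and miR-429 also had 3 of 3 above 0. Below 0 in every member were the seeds AGCAGCA of miR-15/16 (5 of 5, median -0.29), ACAUUCA of miR-181 (4 of 4, median -0.30), ACCCGUA of miR-99/100 (3 of 3, median -0.26) and CCCUGAG of miR-125 (3 of 3, median -0.44).

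A pair with 1 seed is shown for its values, and the difference between the members was not tested. miR-19b-3p and miR-19a-3p belong to the growth-promoting miR-17/92 group of clusters. They share the seed GUGCAAA and differ at 1 of 23 bases. miR-19b-3p had medians of 52.6 and 91.0 and a log2 change of 1.00 ± 0.32 (adjusted p = 0.0812). miR-19a-3p had medians of 2.93 and 3.02 and 0.26 ± 0.31 (adjusted p = 0.637). Mean miR-19b-3p signal was 26.1 in the 16-day mice below 1000 and 68.98 in those of the 8000s, and among mice in the 8000s the log2 change of miR-19a-3p was -0.31.
miR-19b-3p: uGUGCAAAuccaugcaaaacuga
miR-19a-3p: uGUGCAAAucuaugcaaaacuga

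By genome position, 17 clusters of hairpins within 10000 bases of each other had at least 3 tested miRNAs, and 2 of them, both in Dlk1-Dio3, held a called one. All tested members lay below 0, with no call, in 2 clusters outside it: miR-191 and miR-425 on chromosome 9 (4 of 4, from -0.42 to -0.018, median -0.29) and miR-23a, miR-27a and miR-24-2 on chromosome 8 (4 of 4, from -0.68 to -0.026, median -0.30). With miR-22 added to the chromosome 9 pair, 6 of 6 listed members lay below 0, and miR-22-3p had medians of 7764 and 4745 and a log2 change of -0.74 ± 0.22 (adjusted p = 0.061). The miR-216a and miR-217 hairpins on chromosome 11, known from pancreas, had 3 of 3 above 0. So did the hairpins of miR-182, miR-183 and miR-96 on chromosome 6 and those of miR-200a, miR-200b and miR-429 on chromosome 4.

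The abundant miRNAs of the vessel wall were not called. miR-143-3p took 41.5% ± 7.21 of the reads (SD, n = 7) at 16 days and 52.8% ± 13.1 (SD, n = 8) at 3 months (exact permutation test, two-sided p = 0.0637, adjusted over 6 library measures p = 0.199). Its log2 change was 0.72 ± 0.38 (limma adjusted p = 0.288), and the 5 tested miR-143 and miR-145 arms had a median of 0.00. miR-10b-5p took 19.5% ± 2.67 and 18.4% ± 2.73. miR-196b-5p, also from a Hox cluster, lies on chromosome 6, and miR-10b on chromosome 2. miR-196b-5p was 27.4 to 41.3 at 16 days and 12.3 to 26.7 at 3 months with no overlap. Its log2 change was -0.58 ± 0.29 (adjusted p = 0.267). Groups that did not overlap were seen for 5 of 354 miRNAs (1.41%): miR-434-5p, miR-433-3p, miR-668-3p, miR-300-3p and miR-196b-5p, all lower at 3 months. Of the endothelial list (miR-221, miR-222 and miR-126) 2 of 5 tested arms lay above 0 (median -0.14), and its summed signal was 6023 to 22284 and then 8539 to 27284. Depth, the number of miRNAs detected (605 and 518.5 on average) and the scaling factor did not pass either, with adjusted p from 0.199 to 0.311 by exact permutation.

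The balance between the arms of a hairpin was not detectably shifted in ieET-1 arteries. In 84 precursors both arms were tested, and the ratio of 5p to 3p passed the threshold in 0 of them in limma, with a smallest adjusted p of 0.192 and 9 at an unadjusted p below 0.05 (10.7%), 5 towards 5p and 4 towards 3p. Both arms had the same sign in 53 of 84. The more abundant arms had a median log2 change of -0.08 and the less abundant arms of -0.12. miR-532 had the smallest p, with a log2 5p to 3p ratio of 4.47 at 16 days and 5.47 at 3 months (difference 1.00 ± 0.30, SE), followed by miR-30b at 0.83 ± 0.29. Towards 3p, miR-28a differed by -1.25 ± 0.45 and miR-30d by -0.80 ± 0.35, and miR-101a had an unadjusted p of 0.0194. miR-28a was 1 of 2 precursors whose dominant arm differed between the times, and its 5p arm had values close to those of miR-28c in the 28 libraries (Pearson's r = 0.9999), with which it may share reads. Among all 163 tested 5p arms the median change was -0.15, and among 170 3p arms it was -0.06. In the ieCre mice over the same interval 10 of 84 precursors passed for the arm balance (11.9%). They included miR-532 at 0.96 and miR-101a at -1.29 (limma adjusted p = 0.0484 for each). The difference between the genotypes in arm balance passed for 0 of 84.

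**Figure D4:**
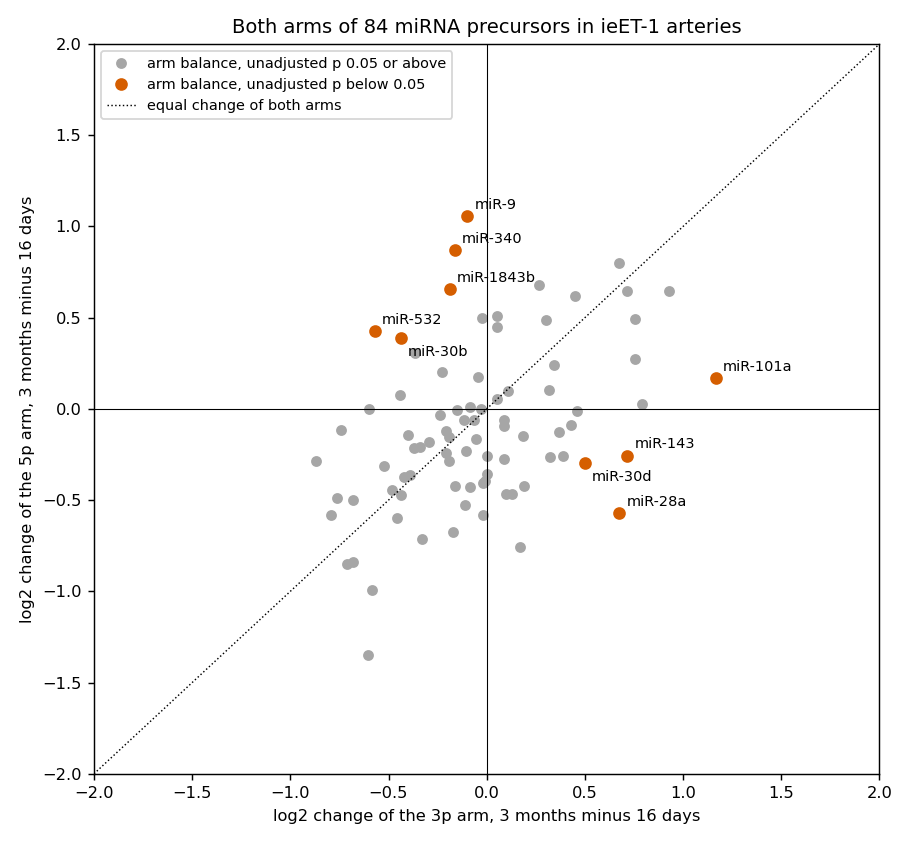
Log2 change of the 5p arm against that of the 3p arm in ieET-1 arteries for 84 precursors with both arms tested (3 months minus 16 days). The 9 named precursors had an unadjusted p below 0.05 for the arm balance, none passed after adjustment, and the dotted line marks equal change of both arms.

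The same interval was compared in the control mice, which differ from the ieET-1 mice in lacking the overexpression. In ieCre arteries 27 of 354 miRNAs passed in limma (7.63%), 7 higher (1.98%) and 20 lower (5.65%). Of these, 26 had the same sign in ieET-1 mice, and 5 passed in both: miR-434-5p, miR-541-5p, miR-433-3p, miR-449a-5p and miR-101b-3p. miR-434-5p had a log2 change of -1.02 in ieCre (adjusted p = 0.026), miR-541-5p of -0.97 (adjusted p = 0.0397) and miR-101b-3p of 1.10 (adjusted p = 0.0271). The Dlk1-Dio3 miRNAs had a median of -0.61 in ieCre, against -0.49 in ieET-1.

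The test of whether the change itself differed between ieET-1 and ieCre called 0 of 354 miRNAs in limma, edgeR and DESeq2. At an unadjusted p below 0.05 limma had 25 (7.06%), and the smallest adjusted p was 0.553. For miR-434-5p the difference was -0.32 on the log2 scale (95% interval -1.08 to 0.43), for miR-541-5p -0.40 (-1.23 to 0.44) and for miR-101b-3p -0.03 (-0.91 to 0.84). For miR-215-5p, which had 0.49 in ieCre (adjusted p = 0.522), it was 1.22 (-0.05 to 2.49, unadjusted p = 0.0593). miR-194-5p had the smallest p of all, 0.65 in ieET-1 against -0.85 in ieCre, a difference with a 95% interval of 0.50 to 2.49 (unadjusted p = 0.00447, adjusted p = 0.553). The interval lay within 2-fold on the log2(value + 1) scale for 121 of 354 miRNAs, so for the others a 2-fold difference between the genotypes could not be bounded.

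**Figure D5:**
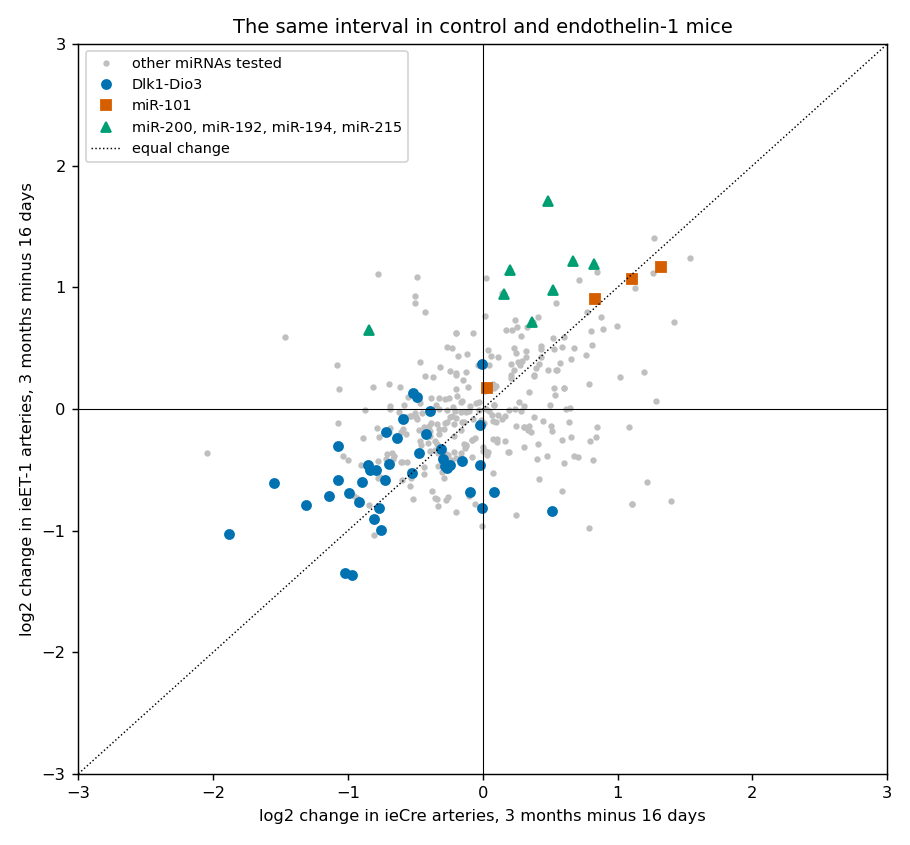
Log2 change over the same interval in ieCre arteries (horizontal axis, 7 against 6 mice) and in ieET-1 arteries (vertical axis, 8 against 7 mice) for 354 miRNAs. Dlk1-Dio3 miRNAs lie mostly below 0 on both axes and the miR-101 family above 0 on both, and no miRNA passed the test of the difference.

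The mouse numbers in the labels fall into ranges that were not the same at both times. Of the 16-day ieET-1 mice 3 were numbered below 1000 and 4 in the 8000s, and of the 3-month mice 6 were in the 8000s and 2 in the 9000s. With the range as a term in the fit 27 miRNAs passed (12 higher, 15 lower), among them 6 of the 7. In the ieET-1 mice of the 8000s alone 5 passed, 3 of them among the 7: miR-434-5p, miR-449a-5p and miR-215-5p. Inside that range the 16-day mice were numbered 8987 to 8992 and the 3-month mice 8134 to 8152. Mouse number and time therefore cannot be told apart there either. In mice numbered 8000 or above 0 passed and 36 had an unadjusted p below 0.05. What the ranges stand for is not given in the labels.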

How the data were processed

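Per the labels' protocols, small RNA libraries of mesenteric artery were prepared with TruSeq reagents. Tools named without a role in the submitters' processing notes include the aligner STAR 2.3.1 and edgeR 3.6.8. The sources used here give no build, miRNA annotation or trimming. For each miRNA and library the authors deposited 1 normalized signal, scaled by them. Every value was a whole multiple of the smallest one of its library (within 0.001), and whole reads were recovered from that. In the 28 libraries fitted, a value of 1 stands for 2.08 to 54.1 reads, so low miRNAs are measured more coarsely in shallow libraries.

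The model was limma 3.58.1 with its trend option (R 4.3.3), fitted to log2(value + 1) with 4 group means, two-sided, Benjamini-Hochberg adjusted over 354 miRNAs that hold 99.99% of reads, threshold 0.05. Each library was taken as 1 mouse, so p-values refer to variation among these libraries. edgeR 4.0.16 (quasi-likelihood) and DESeq2 1.42.0 were run on recovered reads as alternatives. RefSeq (GRCm38.p6) matched 298 of 354 names. The text names called miRNAs (or those of smallest p until 6 per direction), their opposite arms and seed partners, the most abundant, and up to 4 members of each list. Members, the 32 lists and tests were chosen with earlier results of these data known.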

Additional observations from a re-analysis of the deposited data

Results flagged for a closer look

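Among 98 groups of values checked for a library far from its neighbours, 12 had one, where chance gives about 1 in 20. On the log2(value + 1) scale, 3-month mouse 8135 stood above the rest in miR-192-5p (13.3, next 10.4). Mouse 9490 at 3 months stood above the rest in miR-29b-3p (5.47, next 4.81), miR-29a-3p (9.30, next 8.42) and miR-29c-3p (6.97, next 6.02). The 5 most abundant rows over the 28 libraries, which include both near-identical rows of miR-486-5p, took the smallest share of reads in this mouse, 65.4% (next 77.7%). Mouse 8134 at 3 months, the shallowest of the 15 libraries, stood below the rest in miR-19a-3p (0.43, next 1.79), miR-128-3p (1.64, next 2.85) and miR-196b-5p (3.73, next 4.33). Mouse 8151 at 3 months was lowest in miR-433-3p (0.19, next 0.87). At 16 days, mouse 257 stood above the rest in miR-200b-3p (3.93, next 1.91) and miR-429-3p (2.43, next 0.73), and mouse 256 had the smallest share of miR-10b-5p (14.1% of reads, next 19.1%). The epithelial miRNAs miR-200b-3p and miR-429-3p are thus high in mouse 257 at 16 days as well as in mouse 8135 at 3 months.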

How the results depend on the processing

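No paired analysis was possible because no mouse number repeats between groups. The 7 calls between the times became 2 with a pseudocount of 5, 3 with no filter, 2 with a filter at 10, 12 in edgeR (8 higher), 27 in DESeq2 (15 higher), 60 with array weights, 21 with the near-identical pair kept, 27 with the range of mouse number as a term, 0 in mice numbered 8000 or above (36 at an unadjusted p below 0.05) and, chosen after seeing the data, 40 without mice 9489 and 9490. Leaving out 1 library gave 2 to 17 calls; it gave 17 without ieET-1 mouse 9489, 14 without 9490, 13 without 8990 and 12 without ieCre mouse 8149, and 4 or fewer without ieET-1 mouse 255, 256, 257, 8987, 8991, 8992, 8134, 8135, 8136, 8150, 8151 or 8152 or ieCre mouse 932, 9955, 8089, 9486 or 9487. In each of these, miR-434-5p and miR-541-5p were among the calls. The other settings gave 5 to 10. In ieCre, the 27 calls became 175 (all lower) after scaling to total reads, 56 with the range term and 8 without libraries under 5000000 reads, and 3 to 32 without 1 library. The difference of the time changes had 0 calls in every setting run, 0 to 0 without 1 library. Arm balance in ieET-1 mice had 0 calls except 1 without ieET-1 mouse 8990 and 2 without 9490 (0 to 2 without 1 library). The direction turned for miR-434-3p (0.43 with the range term, 0.35 in mice numbered 8000 or above, 0.40 in the 8000s), miR-19a-3p (-0.10, -0.24 and -0.31), miR-101a-5p (-0.085), miR-29a-3p (-0.0901), miR-29c-3p (-0.0376) and miR-10b-5p (-0.088) after scaling to total reads, miR-10b-5p in mice numbered 8000 or above (-0.10), and the share of the 5 most abundant miRNAs in those mice (-0.63 percentage points). The cause was not tested, and the subsets also hold fewer libraries. Of the 7 called miRNAs, miR-101b-3p missed the threshold in 30 of its settings, miR-3107-3p in 26, miR-449a-5p in 20, miR-215-5p and miR-433-3p in 19 each, miR-541-5p in 2 and miR-434-5p in 1. Values near 1 rest on few reads in the shallow libraries, which limits miR-433-3p, miR-449a-5p, miR-3107-3p and miR-668-3p.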
